A study of Mus musculus with 46 samples.

Results

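Impact, Rasgrf1, Zdbf2, Plagl1 and Inpp5f are mouse genes known to be expressed from the paternal chromosome at places where few or no other imprinted genes are known. They were picked by symbol for that known expression, with no threshold on a measured value, though earlier results of these data were known. All 5 are among the 15499 genes of the deposited tables. RNA came from the dorsal raphe nucleus, the serotonin cell group of the midbrain, of female F1 hybrids between the C57 and CAST strains. The hybrids came from reciprocal crosses named F1i and F1r, in which the strains exchange the roles of mother and father. There were 7 libraries of each cross at P5 (postnatal day 5), 7 of each at P15 and 9 of each in adults, whose age in days is not given. No allele was engineered and no treatment is named in any group. Each library has a C57 count and a CAST count for each gene, so that a gene read from 1 parental chromosome shows as a strain ratio that turns over between the crosses. Which strain supplied the mothers of F1i is not in the labels, and the paternal origin of the higher allele is therefore taken from what is known of these genes.

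Genomic imprinting marks the maternal and paternal copies of a gene differently, usually through DNA methylation laid down in the germ line and kept through the divisions of the embryo. Most imprinted genes lie in clusters under a shared control region. These 5 are known mainly as single genes with a control region of their own. Impact is an inhibitor of the eIF2α kinase GCN2 that is abundant in neurons. Rasgrf1 is a calcium-responsive exchange factor for Ras and Rac in neurons, known for its part in growth and memory. Zdbf2 carries a DBF-type zinc finger and is known for an effect on growth after birth, and on its paternal allele a start site far upstream is known from the early embryo. Plagl1 (also named Zac1) is a zinc finger transcription factor that restrains the cell cycle and acts on other imprinted genes. Inpp5f (also named Sac2) is a phosphoinositide phosphatase, and the transcripts of this gene known to be imprinted in brain start inside it. Counts per gene join all transcripts of a gene, so separate start sites were not told apart here.

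Total counts per library ran from 3692778 to 13085952. The serotonergic markers marked the tissue at every age: of 13 listed genes 12 were in the tables, none was at 0 in a whole group, and their summed level had a median of 624 CPM (counts scaled so that each library has the same total) at P5, 1490 at P15 and 1650 in adults. The forebrain markers in the tables, 2 of 3 listed, summed to at most 8.03 CPM in any library. The cerebellar markers, 3 of 4 listed, were not low: they summed to between 204 and 299 CPM, and only Pcp2 among them had a mean under 1 CPM in each group. Adult F1i replicate 1_1 stood apart from its group over all genes, with a median chi-square per degree of freedom of 24.6 against its fellows where the next library had 9.28. Adult libraries carry a pair of numbers whose meaning is not given, so libraries may share an animal, and p-values measure the spread between libraries. The text below calls the allele with fewer counts the lower allele, which for all 5 genes was CAST in F1i and C57 in F1r.

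RefSeq start sites were matched for 4 of the 5 genes, all but Impact. The 250 bases before 4 of these starts are given first because the allele bias of Plagl1 and Zdbf2 was strong at each age and that of Inpp5f was not, and because Zdbf2 has 2 entries that differ in CG content. CG pairs, the site of DNA methylation, are in capitals. The sequences are from RefSeq on GRCm38.p6, plus strand, at chr7:128611115-128611364 for Inpp5f, chr10:13090582-13090831 for Plagl1, and chr1:63200108-63200357 and chr1:63273019-63273268 for the upstream and downstream entries of Zdbf2.
Inpp5f: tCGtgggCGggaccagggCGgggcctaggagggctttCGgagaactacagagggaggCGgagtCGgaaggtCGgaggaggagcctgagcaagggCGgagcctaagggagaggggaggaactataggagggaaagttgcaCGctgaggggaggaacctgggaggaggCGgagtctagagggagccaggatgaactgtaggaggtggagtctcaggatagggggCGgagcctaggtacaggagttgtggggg
Plagl1: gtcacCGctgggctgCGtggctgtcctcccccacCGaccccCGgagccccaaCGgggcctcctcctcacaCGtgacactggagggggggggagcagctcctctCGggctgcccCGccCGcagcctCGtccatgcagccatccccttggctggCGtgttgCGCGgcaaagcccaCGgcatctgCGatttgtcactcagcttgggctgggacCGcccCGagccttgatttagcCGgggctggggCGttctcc
Zdbf2 upstream: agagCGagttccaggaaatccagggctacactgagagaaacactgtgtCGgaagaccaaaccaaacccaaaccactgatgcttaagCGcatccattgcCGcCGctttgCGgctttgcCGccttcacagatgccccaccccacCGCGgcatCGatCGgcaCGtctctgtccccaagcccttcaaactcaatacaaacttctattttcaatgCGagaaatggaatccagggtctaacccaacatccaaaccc
Zdbf2 downstream: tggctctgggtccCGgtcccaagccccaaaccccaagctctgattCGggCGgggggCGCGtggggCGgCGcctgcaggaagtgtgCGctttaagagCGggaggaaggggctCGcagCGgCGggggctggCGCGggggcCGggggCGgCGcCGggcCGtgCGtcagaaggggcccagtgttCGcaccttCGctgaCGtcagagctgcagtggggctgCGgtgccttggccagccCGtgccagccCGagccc
Counted over the window of 300 bases that runs past the start, Inpp5f held 15 CG pairs, Plagl1 26, Rasgrf1 26 and Zdbf2 15 and 38. The median over 32851 such windows was 7. As many pairs or more were found in 34.6% of windows for Inpp5f, 16.9% for Plagl1 and Rasgrf1, and 34.6% and 4.95% for the Zdbf2 pair. The letters TGCCGC, which the imprint-keeping protein ZFP57 is known to bind when methylated, were searched on both strands. They occurred 1 time in the Plagl1 window and 3 times in the upstream Zdbf2 window, and 11.6% of all windows held them. A match is a description of the letters only, and no link between these sequences and the allele bias was tested. The Inpp5f transcripts known to be imprinted in brain start inside the gene, and the window given here was not assigned to them.

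All 5 genes were read almost wholly from one parental chromosome at P5, and 4 of them remained so in adults. To measure this, the log2 ratio of CAST to C57 counts in F1r was subtracted from that in F1i and the result divided by 2. This parental effect was negative for 5 of 5 genes at each of the 3 ages, and all were called at an adjusted p of 0.05. Among all genes tested the same call was made for 2.71% at P5, 0.742% at P15 and 2.71% in adults, and for a negative effect alone for 0.365%, 0.283% and 0.45%. The 5 genes had median effects of -6.42, -6.27 and -6.78 at the 3 ages, beside 0.00 over all genes tested at each age. That these genes are imprinted was the reason for choosing them, so the calls are a check of the labels and of the counts. Tests were edgeR's quasi-likelihood tests, here with library as a model term, and p-values were adjusted over all genes tested (Benjamini-Hochberg).

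The bias of Inpp5f weakened with age. At P5 its lower allele gave 3.14 to 4.16% of the counts in F1i (median 3.99%) and 3.02 to 5.12% in F1r (median 3.85%). At P15 it gave 10.7 to 13.8% in F1i (median 12%) and 10.1 to 13% in F1r (median 11.8%). In adults the share was 18.2 to 21.7% in F1i (median 19.5%) and 19.1 to 21.2% in F1r (median 20.3%). The ages did not overlap in any library, and at each age the crosses overlapped. The shares rest on 998 to 6827 Inpp5f counts per library. Its parental effect (log2 ± SE) had values of -4.66 ± 0.04, -2.89 ± 0.03 and -2.02 ± 0.02 from the youngest to the oldest group.

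The change of the parental effect with age passed the test for Inpp5f at both steps. It was 1.77 ± 0.05 from P5 to P15 (adjusted p 1.4e-39) and 0.86 ± 0.04 from P15 to adults (adjusted p 1.1e-25). From P5 to P15 Inpp5f was the only one of the 5 genes called, and 0.153% of all genes tested were called. From P15 to adults 2 of the 5 were called, Inpp5f toward a weaker and Impact toward a stronger effect, and 0.129% of all genes were called. The strain effect of Inpp5f, which averages the log2 ratio of CAST to C57 over F1i and F1r, was -0.01 ± 0.04, 0.02 ± 0.03 and -0.03 ± 0.02 at the 3 ages and was not called at any. With each allele column scaled by its own TMM factor the adult value was -0.06 ± 0.02 and was called (adjusted p 0.018).

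**Figure D1:**
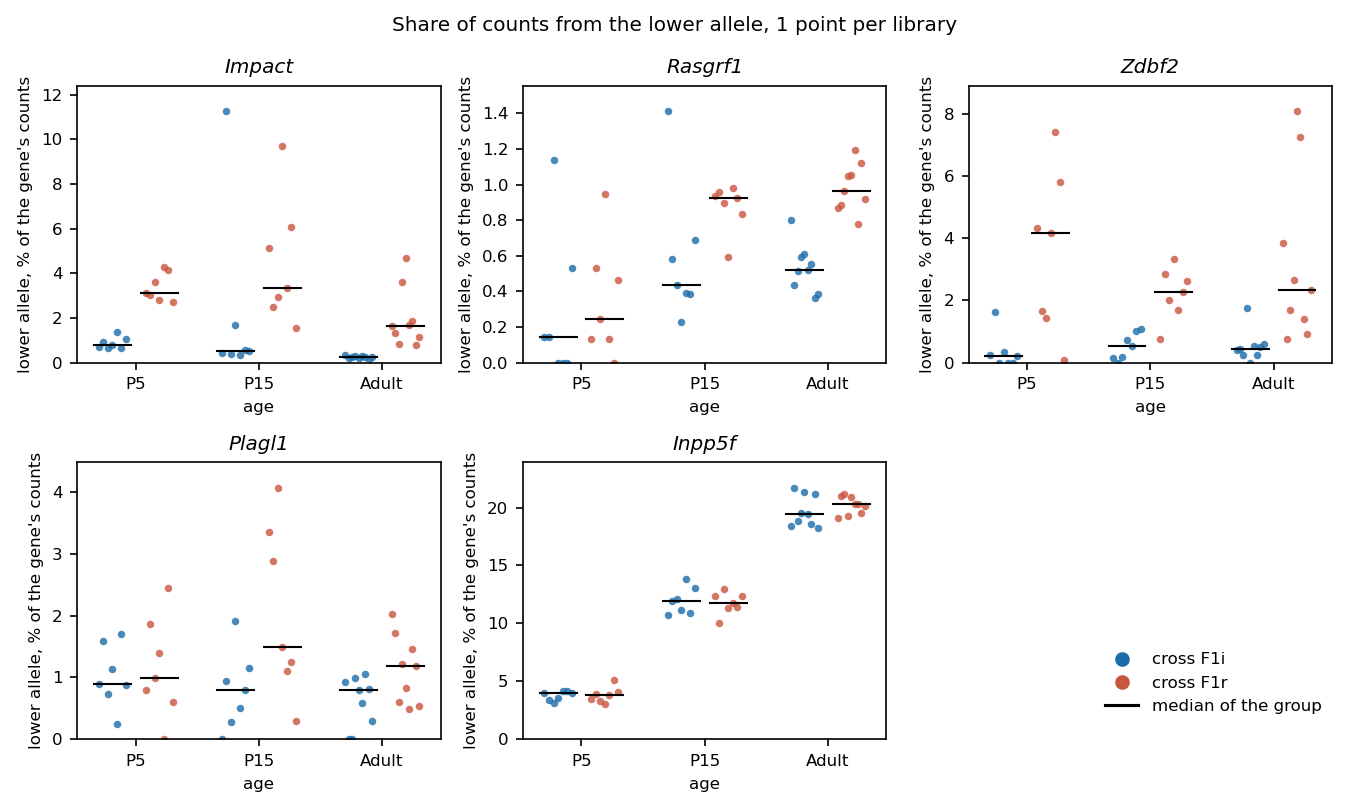
Lower-allele share of the counts (%) in each library of F1i (blue) and F1r (red) at P5, P15 and in adults, 1 panel per gene with its own axis from 0, black bars at group medians. The Inpp5f share climbs from at most 5.12% at P5 to at least 18.2% in adults in both crosses. Impact, Zdbf2, Rasgrf1 and Plagl1 have higher medians in F1r than in F1i at each age. The highest single Impact share, 11.3%, is in F1i at P15.

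The 2 alleles of Inpp5f moved in opposite directions. In F1i the higher allele, C57, had 630 ± 14.6 CPM at P5 (mean ± SD, n = 7), 274 ± 30.7 at P15 (n = 7) and 177 ± 30.1 in adults (n = 9). The lower allele, CAST, had 24.7 ± 2.78, 37.1 ± 4.42 and 43.1 ± 5.35 CPM in the same libraries. In F1r, where the strains are exchanged, the higher allele went from 692 ± 38.9 to 303 ± 23.9 and 172 ± 18.0 CPM, and the lower from 27.5 ± 5.02 to 40.1 ± 2.89 and 43.5 ± 3.01 CPM. The P5 and P15 ranges of the lower allele did not overlap in F1i (20.4 to 27.2 and 29.9 to 42.3 CPM), and in F1r 1 P5 library at 38.3 CPM lay inside the P15 range.

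Tested on each allele's own counts, a test added after these values were seen, the higher allele fell and the lower allele rose at each step in each cross. From P5 to P15 the change was -1.22 ± 0.09 for C57 and 0.57 ± 0.10 for CAST in F1i, and -1.23 ± 0.06 for CAST and 0.51 ± 0.08 for C57 in F1r. From P15 to adults it was -0.58 ± 0.09 and 0.26 ± 0.09 in F1i, and -0.74 ± 0.06 and 0.19 ± 0.07 in F1r. The largest adjusted p of these 8 tests was 0.026, that of C57 in F1r at the later step. Calls of this kind were common, with 71.1% (C57) and 72.0% (CAST) of all genes called in F1i and 73.1% and 73.8% in F1r at the first step, and 55.3%, 56.5%, 61.7% and 63.4% at the second. In bulk tissue fewer cells of a type and less RNA per cell cannot be told apart, and these levels are relative to the library total.

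**Figure D2:**
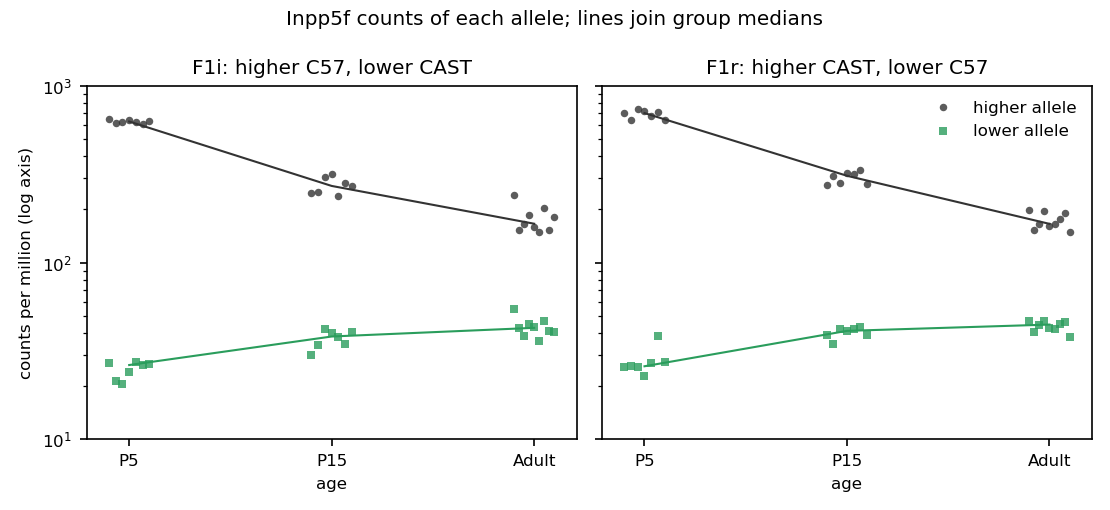
Inpp5f CPM of the higher allele (grey circles) and the lower allele (green squares) in each library by age, F1i left and F1r right, on a log axis with lines through the group medians. The higher allele goes from means of 630 and 692 CPM at P5 to 177 and 172 CPM in adults, and the lower allele from 24.7 and 27.5 to 43.1 and 43.5 CPM.

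Impact kept a strong bias at each age, with effects of -5.80 ± 0.09, -5.11 ± 0.22 and -7.10 ± 0.19 at the 3 ages. Without F1i P15 replicate 2, described with the P15 shares, the P15 effect was -5.89. Its lower allele was more visible when it was C57 than when it was CAST. At P5 the share was 0.64 to 1.39% in F1i (median 0.77%) and 2.74 to 4.26% in F1r (median 3.12%). In adults it was 0.17 to 0.34% in F1i (median 0.25%) and 0.79 to 4.69% in F1r (median 1.65%). The crosses did not overlap at either age. The strain effect of Impact lay toward C57 and was called at each age (-0.97 ± 0.09, -0.64 ± 0.22 and -1.43 ± 0.19), with -1.41 at P15 without that library. For a gene read almost wholly from 1 allele this average depends as much on the few lower-allele counts as on the higher allele. It therefore does not say which strain's copy is higher when read. The higher Impact allele had means of 178, 815 and 779 CPM at the 3 ages as C57 in F1i. As CAST in F1r it had 210, 815 and 770 CPM. Strain effects were called for 58.4%, 58.4% and 67.8% of all genes at the 3 ages, so such a call is common. Of the 5 genes 2 were called at P5, 4 at P15 and 3 in adults, each toward C57, where 26.9%, 27.3% and 31.9% of all genes were called toward C57.

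At P15 the Impact shares were spread out in both crosses. In F1i 6 of 7 libraries lay between 0.32 and 1.68%, and replicate 2 had 431 CAST counts of 3829, a share of 11.3% (95% Wilson interval 10.3 to 12.3%, counting error only). The other members were not high in that library: Rasgrf1 had 0.58%, Zdbf2 0 counts of 443, Plagl1 0.94% and Inpp5f 12%. In F1r the P15 share ran from 1.53 to 9.69% (median 3.33%). The SD between libraries was 8.74 times what counting alone gives in F1r at P15 and 8.27 times in F1r adults, and 0.85 times in F1i adults. The change of the Impact effect from P15 to adults was -1.99 ± 0.36 (adjusted p 0.00013), and without F1i P15 replicate 2 it was -1.21 ± 0.29 and not called (adjusted p 0.099). So that call rests on 1 library.

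Zdbf2 had the same asymmetry between crosses, and the medians of Rasgrf1 and Plagl1 were also higher in F1r at each age, by smaller steps. Its effect was -6.42 ± 0.33, -6.45 ± 0.20 and -6.07 ± 0.25 at the 3 ages. The lower allele in F1i had a median of 0.22% at P5 (0 to 1.63%), 0.54% at P15 (0 to 1.09%) and 0.45% in adults (0 to 1.76%). In F1r the medians were 4.17% (0.095 to 7.43%), 2.27% (0.77 to 3.32%) and 2.32% (0.77 to 8.09%). The ranges of the crosses overlapped at each age. In adults that overlap came from F1i replicate 2_1 at 1.76%, since the other 8 F1i libraries had at most 0.599% and the lowest F1r library 0.771%. The strain effect, toward C57, was called throughout (-1.61 ± 0.33, -1.05 ± 0.20 and -1.23 ± 0.25). Among F1r adults the libraries with the first label number 6 had 2.64 to 8.09% for Zdbf2 and 1.66 to 4.69% for Impact. Those numbered 5 had 0.77 to 3.85% and 0.81 to 1.65%, and those numbered 7 had 0.92 to 2.32% and 0.80 to 1.85%. What that number stands for is not given.

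A high C57 share of Impact in F1r was not always met by one in Peg3 and other imprinted genes of the library. The sum of 6 paternally expressed genes from clusters with a lower-allele share under 2% at each age (Peg3, Usp29, Peg10, Sgce, Magel2 and Zrsr1, chosen by that share and so without a test) gives a reference in the same libraries. Most of its counts are those of Peg3, so it mainly describes the domain that Peg3 shares with Usp29. F1r P15 replicate 4, the highest for Impact at 9.69%, had 0.71% for that sum, and F1r P15 replicate 3, the highest for the sum at 4.06%, had 2.92% for Impact. Of the 532 lower-allele counts of the sum in replicate 3, 492 were from Peg3 (4.37%) and 28 from Usp29 (4.74%), while Peg10 had 0.838% and Zrsr1 0. Adult F1r replicate 6_2 had 2.52% for the sum, 4.69% for Impact and 8.09% for Zdbf2. There too Peg3 (2.80%) and Usp29 (2.59%) carried the sum, with 0.736% for Peg10 and 0 for Sgce and Magel2. F1i P15 replicate 2 had 0.148% for the sum. Rasgrf1 stayed at or under 1.2% in every F1r library.

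**Figure D3:**
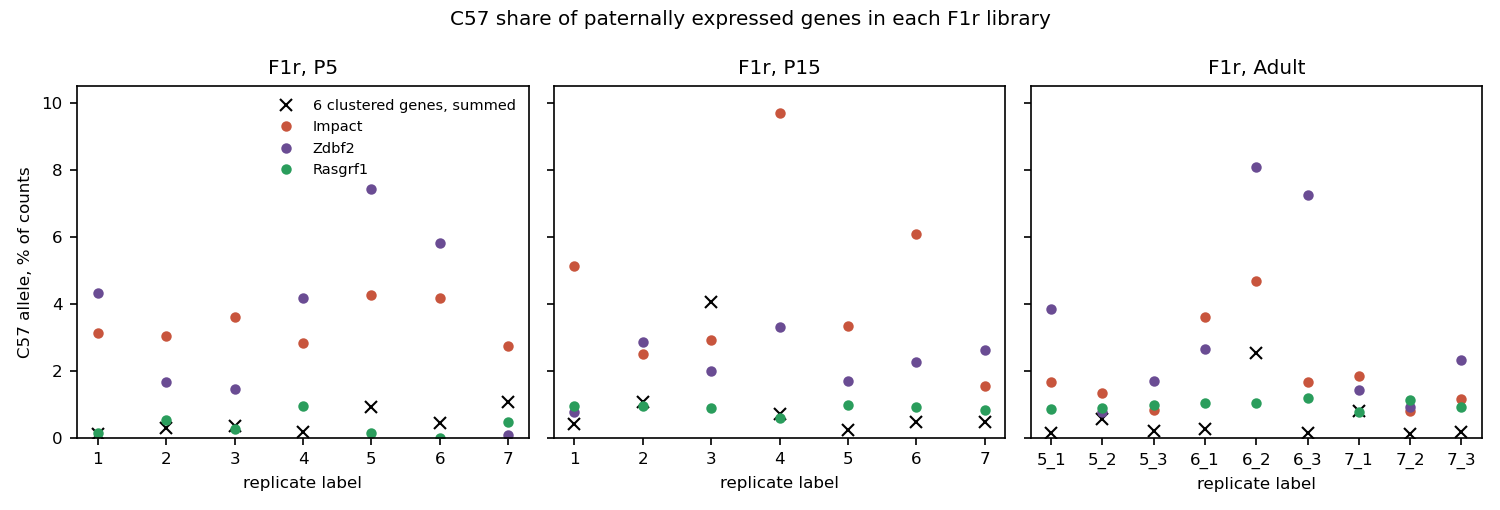
C57 share of the counts (%) in each F1r library, by replicate label, for Impact (red), Zdbf2 (purple), Rasgrf1 (green) and the sum of 6 clustered paternally expressed genes, mostly Peg3 (black crosses) at P5, P15 and in adults. P15 replicate 4 has 9.69% for Impact and 0.71% for the sum, P15 replicate 3 has 4.06% for the sum, and Rasgrf1 lies at or under 1.2% throughout.

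Rasgrf1 had the smallest lower-allele share of the 5 when the libraries of an age were pooled, 0.32% at P5, 0.734% at P15 and 0.772% in adults. Its effect was -8.23 ± 0.30, -7.10 ± 0.11 and -7.09 ± 0.05. At P5 the share ran from 0 to 1.14% in F1i and from 0 to 0.95% in F1r, on 0 to 7 counts per library, and 4 libraries had none. In those 4, 3 counts would have been a share of 0.393 to 0.506%. The P5 medians were 0.14% in F1i and 0.25% in F1r. At P15 the shares were 0.23 to 1.41% in F1i (median 0.44%) and 0.59 to 0.98% in F1r (median 0.93%). In adults the shares were 0.37 to 0.80% in F1i (median 0.52%) and 0.78 to 1.20% in F1r (median 0.97%), overlapping in 1 library of each cross. The weaker P15 effect, by 1.14 ± 0.35 against P5, was not called (adjusted p 0.12). With limma on the log2 ratio it was 1.46 ± 0.29 and called (adjusted p 0.0031). The strain effect of Rasgrf1 was -0.45 ± 0.05 in adults and called, -0.15 ± 0.30 at P5 and not called, and -0.27 ± 0.11 at P15 (adjusted p 0.020), where DESeq2 gave -0.34 and no call (adjusted p 0.11).

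Plagl1 held close to 1% at each age, with 1.08% at P5, 1.24% at P15 and 0.855% in adults for the pooled libraries. Its effect was -6.47 ± 0.20, -6.27 ± 0.24 and -6.78 ± 0.19, and neither change with age was called. The share was 0.24 to 1.70% in F1i and 0 to 2.45% in F1r at P5, 0 to 1.91% and 0.30 to 4.07% at P15, and 0 to 1.05% and 0.50 to 2.03% in adults. The crosses overlapped at each age, with medians of 0.887%, 0.792% and 0.79% in F1i and 0.998%, 1.5% and 1.19% in F1r. With 173 to 803 Plagl1 counts per library these shares rest on at most 11 counts each, and the 4 libraries with none allow up to 0.578 to 1.02%. The strain effect was -0.63 ± 0.24 at P15 (adjusted p 0.016), and DESeq2 did not call it (-0.66, adjusted p 0.10). In adults it was -0.39 ± 0.19 and not called (adjusted p 0.065), and it was called with TMM factors per allele column (adjusted p 0.049), with limma (0.014) and with libraries summed by first label number (0.043).

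A lower-allele share that was higher in later ages was also seen in imprinted genes of clusters. Of 28 paternally expressed genes listed, 19 were in the tables, and 16 were tested at P5, 17 at P15 and 17 in adults. A lower-allele share under 5% was seen for 7, 9 and 9 of these, and for 5, 4 and 4 of the 5 single genes. Mest, a hydrolase gene, went from 5.72% to 26.1% and 39.2%. Gnas went from 5.17% to 12% and 17.5%. Its count joins all transcripts of the gene, and that of the stimulatory G protein α subunit was not told apart from the others. Grb10, an adaptor of insulin signalling, went the other way from 7.61% to 3.01% and 1.92%, as did Dlk1, a Notch-type ligand, from 4.01% to 2.33% and 1.70%. Igf2 and Nespas at each age, and Rtl1 at P15, had over 50% of their counts from the allele that is the lower one for the single genes. These shares are descriptions, without a test of the difference from the 5 genes.

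A smaller parental effect was called by edgeR beside 4 of the 5 genes, Plagl1 among them at P5 and in adults. The 3 nearest genes with counts on each side of each gene made 30 neighbours. Of these 28 were tested at P5, 27 at P15 and 30 in adults, and 7, 5 and 6 were called for a parental effect. Among all genes tested 2.71%, 0.742% and 2.71% were called. The called neighbours include Gm16044, which lies inside Inpp5f, at each age. None of the 6 around Impact was called at any age by edgeR or DESeq2, and 0, 0 and 1 of them had an unadjusted p under 0.05. Ankrd34c, an ankyrin repeat gene beside Rasgrf1, had -1.22 ± 0.16, -0.63 ± 0.12 and -0.38 ± 0.07, in the direction of Rasgrf1. Its CAST share over pooled libraries was 24.8% in F1i and 64.3% in F1r at P5, and 36.4% and 49.3% in adults. Adam23, a cell-surface gene next to Zdbf2, had -0.29 ± 0.02, -0.30 ± 0.03 and -0.29 ± 0.01 at the 3 ages, a CAST share of 47.4% in F1i and 57.3% in F1r in adults.

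Some neighbours were biased the other way. Phactr2, a phosphatase and actin regulator gene near Plagl1, had 0.39 ± 0.09 at P5, 0.32 ± 0.09 at P15 (adjusted p 0.069, not called) and 0.21 ± 0.06 in adults. Fuca2, a fucosidase gene near Plagl1, had 0.13 ± 0.04, 0.06 ± 0.03 and 0.07 ± 0.02, called at P5 and in adults. DESeq2 called 0 of the 6 neighbours of Plagl1 at each age. On the Inpp5f side, Tgfb1i1, a focal adhesion gene, had 1.20 ± 0.12, 0.95 ± 0.17 and 0.71 ± 0.10, called at each age. BC017158 had 0.20 ± 0.03, 0.20 ± 0.05 and 0.10 ± 0.03, called at P5 and P15. The processed pseudogene Gm16044 lies inside Inpp5f on the same strand, and with a mean of 24.1 counts per library at P5 it had -4.63 ± 0.43, -3.48 ± 0.29 and -3.58 ± 0.25. Its reads cannot be told apart from those of Inpp5f transcripts. Of the 6 neighbours of Inpp5f edgeR called 3 at P5, 3 at P15 and 2 in adults, and DESeq2 called 2 at each age.

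**Figure D4:**
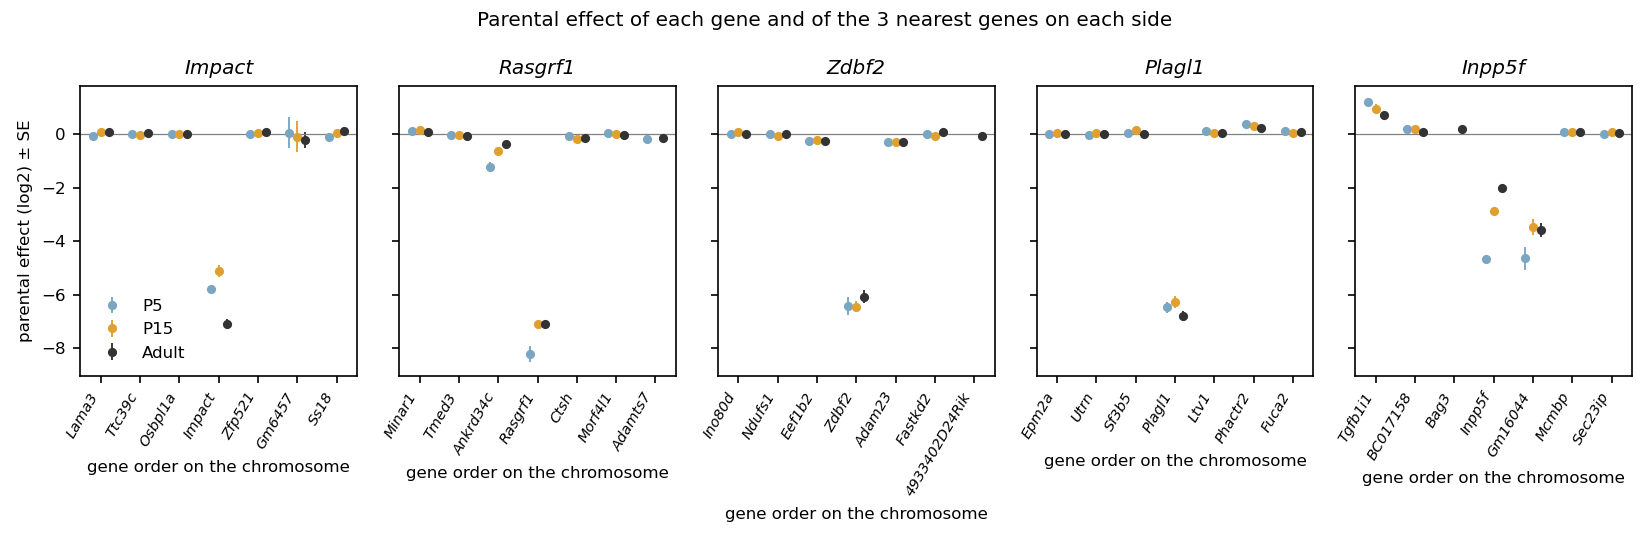
Parental effect (log2, estimate ± SE) of Impact, Rasgrf1, Zdbf2, Plagl1 and Inpp5f and of the 3 nearest genes with counts on each side, in chromosomal order, at P5 (blue), P15 (orange) and in adults (black). Each named gene sits at or below -2.02, and the neighbours lie between -1.22 and 1.20 apart from Gm16044 inside Inpp5f.

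The level of the 5 genes, both alleles summed, changed with age in different directions. Impact had 175 to 232 CPM at P5 (median 194), 668 to 998 at P15 (median 845) and 639 to 1035 in adults (median 761). Rasgrf1 had 98.4 to 143 CPM (median 121), 391 to 517 (median 446) and 640 to 738 (median 697), with no overlap between ages. Inpp5f had 635 to 767 CPM (median 670), 275 to 378 (median 321) and 185 to 296 (median 209). Zdbf2 went from a median of 133 CPM at P5 to 88.6 at P15 and 76.1 in adults, and Plagl1 from 67.5 to 53.6 and 43.1. Impact and Rasgrf1 were higher, and Inpp5f and Zdbf2 lower, at P15 than at P5 in every library, while the Plagl1 ranges overlapped.

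From P5 to P15 the change was 2.05 ± 0.06 for Impact and 1.85 ± 0.03 for Rasgrf1, and -1.11 ± 0.05 for Inpp5f, -0.62 ± 0.08 for Zdbf2 and -0.41 ± 0.06 for Plagl1. All 5 were called, 2 up and 3 down, as were 83.4% of all genes tested (42.5% up and 40.9% down). From P15 to adults Rasgrf1 rose by 0.70 ± 0.03, Inpp5f fell by 0.52 ± 0.05 and Plagl1 fell by 0.26 ± 0.06, with 74.7% of all genes called (37.0% up and 37.7% down). Impact (-0.05 ± 0.05) and Zdbf2 (-0.08 ± 0.07) were not called at that step. The cell makeup of the samples moved over the same ages. The oligodendrocyte markers (5 of 6 in the tables) had a median sum of 2210 CPM at P5 (1750 to 2920), 22800 at P15 (17000 to 29400) and 8280 in adults (6980 to 10700). The immature neuron markers (3 of 4) had 1660 CPM (1560 to 1820), 698 (590 to 750) and 691 (433 to 732). No marker of either list was at 0, and their part in these changes was not tested.

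**Figure D5:**
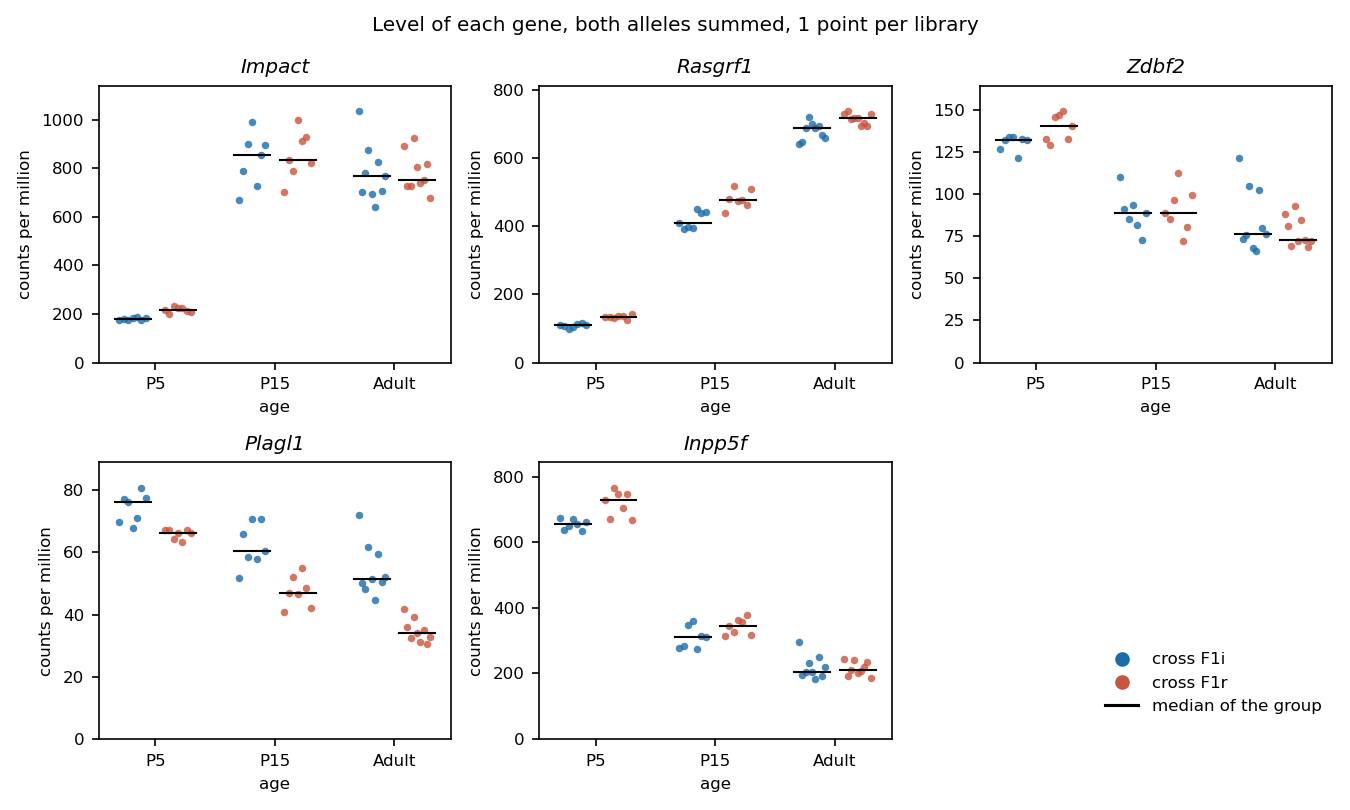
CPM of each gene, both alleles summed, in each library of F1i (blue) and F1r (red) by age, with axes from 0 and black bars at group medians. Impact and Rasgrf1 are higher at P15 than at P5 in every library, Inpp5f is lower, and Plagl1 is higher in F1i than in F1r in adults.

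Plagl1 was the one gene of the 5 whose level differed between crosses in adults. It had 44.5 to 72.1 CPM in F1i (median 51.5) and 30.4 to 41.7 in F1r (median 34.2), and the groups did not overlap. The F1i minus F1r difference was 0.66 ± 0.09 (adjusted p 0.00023), and 15 genes in all, 0.111% of those tested, were called. With the second label number as a replicate block 77 genes were called, and the Plagl1 value was 0.66 ± 0.06. Summing the libraries by first label number gave 0.67 ± 0.06 for Plagl1, and leaving out adult F1i replicate 1_1 gave 0.60 ± 0.07. Nearly all Plagl1 counts were C57 in F1i and CAST in F1r, with adult means of 54.1 and 34.35 CPM for the higher allele. A difference between crosses therefore cannot be told apart from one between the strains of the allele read. At P15 Plagl1 had 51.6 to 70.8 CPM in F1i and 40.7 to 55.0 in F1r, which overlapped, with a difference of 0.42 ± 0.08 that edgeR did not call (adjusted p 0.14) and DESeq2 did (0.43, adjusted p 0.0042).

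At P15 edgeR called none of the 5 genes for a cross difference, and 0.0467% of all genes. An unadjusted p under 0.05 was seen for 2 of the 5, and DESeq2 called 1. At P5 edgeR called 4 of the 5 and 1.17% of all genes, 3 of the 5 lower in F1i (0.673% of all genes) and 1 higher (0.495%). Impact had 175 to 188 CPM in F1i and 200 to 232 in F1r, a difference of -0.26 ± 0.03. Rasgrf1 had 98.4 to 116 and 125 to 143 CPM, a difference of -0.31 ± 0.04. Neither pair of ranges overlapped. Inpp5f was lower in F1i by a smaller step (-0.13 ± 0.03, ranges of 635 to 675 and 669 to 767 CPM), Plagl1 was higher (0.18 ± 0.04, 67.9 to 80.8 and 63.4 to 67.1 CPM), and Zdbf2 was not called (-0.09 ± 0.04, adjusted p 0.36). The oligodendrocyte markers summed to 1750 to 2080 CPM in F1i and 2340 to 2920 in F1r at P5, and 5 of 5 were called lower in F1i. The serotonergic markers summed to 518 to 631 CPM in F1i and 553 to 751 in F1r, and 3 of 12 were called lower in F1i and 0 higher (DESeq2 called 0). Of the 3 immature neuron markers 2 were called higher in F1i, with sums of 1640 to 1750 and 1560 to 1820 CPM. The part of these cell types in the P5 differences was not tested. As for Plagl1 in adults, the cross and the strain of the allele read cannot be told apart for these genes.

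The genes that work with each of the 5 were described from lists, which also changed with age at rates near the background of 83.4% and 74.7%. Of 15 genes around GCN2, 4 rose and 7 fell from P5 to P15, with a median change of -0.10 beside 0.02 over all genes. Gcn1l1, an activator of GCN2, fell by 1.19 ± 0.08 and then rose by 0.57 ± 0.08. Asns, an amino acid synthesis gene of the GCN2 response, rose at both steps (0.44 ± 0.04 and 0.29 ± 0.03). From P15 to adults 6 of the 15 rose and 6 fell. Of 23 Ras pathway genes 7 rose and 15 fell at the first step and 12 rose and 3 fell at the second. At the first step Rasgrp1, another exchange factor, rose by 1.72 ± 0.06 as Rasgrf1 did, while Rasgrp2 fell by 1.86 ± 0.07. Rasgrf2, the close relative of Rasgrf1, was lower at P15 (228 CPM in F1i, 243 in F1r) than at P5 (329 and 324), unlike Rasgrf1. Rasgrf2 rose by 0.80 ± 0.05 at the second step, to 398 and 387 CPM.

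Of 20 phosphoinositide genes 11 rose and 6 fell at the first step, and 8 rose and 8 fell at the second. Sacm1l, a phosphatase with the same Sac domain as Inpp5f, rose by 1.05 ± 0.06 at the first step, and the synaptojanin gene Synj2 rose at both (1.32 ± 0.08 and 0.99 ± 0.06). Of 13 PLAG family and imprinted network genes 5 rose and 7 fell, then 3 rose and 9 fell. H19, an imprinted noncoding RNA of that network, fell by 2.61 ± 0.13 and 2.17 ± 0.20. It was higher in F1i at each age (1.61 ± 0.10, 2.01 ± 0.23 and 2.72 ± 0.32), in adults on only 1.93 CPM in F1i and 0.28 in F1r. Its parental effect at P5, 5.25 ± 0.34, had the opposite sign to that of Plagl1. Cdkn1c (0.53 ± 0.12) and Mest (0.27 ± 0.07) of that list were also called higher in F1i at P5. For these genes too the cross and the strain of the allele read cannot be told apart. Of 4 genes listed with the DBF zinc finger and CDC7, 2 rose and 2 fell, then 2 rose and 1 fell. Cdc7, the kinase that DBF4 activates, rose by 0.31 ± 0.07 and then fell by 0.63 ± 0.06.

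Of 18 genes listed for the upkeep or removal of DNA methylation and related chromatin marks, 3 rose and 13 fell from P5 to P15, where 40.9% of all genes fell. From P15 to adults 4 rose and 9 fell, where 37.7% of all genes fell. Their median change was -0.72 and -0.31, beside 0.02 and -0.01 over all genes. Dnmt1, the maintenance DNA methyltransferase, went from 230 CPM in F1i and 217 in F1r at P5 to 93.7 and 95.5 at P15, a change of -1.28 ± 0.04. Dnmt3a, a de novo methyltransferase, fell by 1.48 ± 0.06 and 1.07 ± 0.06 at the 2 steps. Trim28, the corepressor that ZFP57 recruits, fell by 1.21 ± 0.06 at the first step, and Tet1, a methylcytosine oxidase, fell by 1.76 ± 0.05 at the second. For the GCN2, Ras, phosphoinositide, DBF and imprint lists edgeR called no cross difference at P5, where 0, 1, 0, 0 and 4 of their genes had an unadjusted p under 0.05 and DESeq2 called none. Of the 13 PLAG family and imprinted network genes edgeR called 3 at P5 and DESeq2 2, and 5 had an unadjusted p under 0.05. Parental effects outside the imprinted genes were called by edgeR in these lists for Adam23 and for the X-linked genes Ocrl (0.26 ± 0.05 at P5, 0.30 ± 0.06 in adults), Mtm1 (0.37 ± 0.08 in adults) and Rbbp7 (0.58 ± 0.16 in adults). DESeq2 called neither Ocrl at P5 nor Rbbp7 in adults.

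The genes with a level most like each of the 5 were found by Pearson correlation of log2 CPM over 46 libraries among 11504 genes. The libraries fall into 3 ages, so these values mostly describe the age profile, and no p is given. They included Ermn and Ttll7 for Impact (r = 0.991 for both), Plekhb1, Acsl6 and Gls2 for Rasgrf1 (0.992 to 0.995), and Gng2, Pkia and AW551984 for Inpp5f (0.988 to 0.991). For Zdbf2 they were Spast, Chl1 and Cpeb2 (0.925 to 0.938) and for Plagl1 H19, Unc13b and Col11a1 (0.831 to 0.881). With the 6 group means removed the first were Pafah1b2 for both Impact (0.924) and Inpp5f (0.930), Atmin for Rasgrf1 (0.669), Col4a3bp for Zdbf2 (0.857) and Slitrk4 for Plagl1 (0.783). Within groups Impact and Inpp5f moved together (r = 0.887), whereas over all libraries they ran in opposite directions (r = -0.856). Rasgrf1 had within-group values from -0.256 to 0.086 with the other 4 genes. All correlations share the library total as scale. The within-group values also hold what adult libraries with the same second label number share, since only group means were removed. Such libraries deviated together (correlation 0.461 to 0.761), and the part of this in the within-group values was not tested.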

How the data were processed

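The authors deposited read counts, as whole numbers, for the C57 and the CAST allele of each gene, in 1 table for each of 3 ages. The submitters' processing notes name Novoalign and mm9, and the labels' protocols name TruSeq libraries with 50 bp single-end reads. Allele assignment, strand and multiply mapped reads are not given in the sources used here. All 92 columns matched a library, and 14969 of 15499 identifiers have a symbol.

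Allele effects were fitted with edgeR 4.0.16 in R 4.3.3 (quasi-likelihood, a term for each library, both alleles' total as library size, mean summed count of 20 or more). Levels used TMM and filterByExpr. Changes with age used all 46 libraries. Calls are at a Benjamini-Hochberg adjusted p of 0.05 over all genes tested. The fits were tested on simulated data. Alternatives used DESeq2 1.42.0, limma 3.58.1, other scaling and filters. The members and lists were chosen with earlier results of these data known.

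Neighbours are the 3 nearest genes each side, likeness takes the 3 highest correlations, and lists name up to 4 genes per step by smallest p. A gene that the likeness rule names for Impact is not reported here. Adult libraries of both crosses with the same second label number deviated together (correlation 0.461 to 0.761 for all 3 numbers), so those numbers pair the libraries. The fits given first have no block, and the blocked value is given where it moved a count of calls by over 1.5 times.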

Additional observations from a re-analysis of the deposited data

Results flagged for a closer look

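Each gene's lower-allele share and its level were looked at in each of 6 groups, 60 sets of values in all. In 5 of them 1 library lay far from the rest, where chance gives about 1 in 20. The Impact lower-allele share was 11.26% in F1i P15 replicate 2, where the next highest library had 1.676%. For Rasgrf1 the share was 1.413% in F1i P15 replicate 1 (nearest library 0.689%), and in F1r P15 replicate 4 it was lowest at 0.5917% (nearest 0.8325%). For Zdbf2 it was 1.628% in F1i P5 replicate 2 (nearest 0.348%) and 1.758% in adult F1i replicate 2_1 (nearest 0.5994%).

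The parental effect differed between ages for 2 genes by a test of the difference itself. The Inpp5f effect weakened by 1.771 from P5 to P15 and by a further 0.862 from P15 to adults (log2). The Impact effect became stronger from P15 to adults, with a change of -1.988, and this call was lost without F1i P15 replicate 2 (-1.213, adjusted p 0.099).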

How the results depend on the processing

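For the 5 genes 415 values were recomputed under other settings: 406 kept direction and call, 6 gained a call, 3 lost one and 0 reversed. The losses and gains are given with the genes. Over all genes the number called for a parental effect at P5 was 120 with DESeq2 against 327, and in adults 162 with limma on the log2 ratio and 138 with DESeq2 against 344. For the adult cross difference it was 77 with the replicate block, 53 with DESeq2 and 306 with libraries summed by first label number, against 15. For the change of the parental effect limma called 38 genes against 19 from P5 to P15, and 26 against 16 from P15 to adults. The cause was not tested. The block by replicate number changed no call of the 5 genes. The numbers do not pair libraries at P5 (correlations from -0.079 to 0.055) or P15 (-0.321 to 0.662, 2 of 7 over 0.1). Few lower-allele counts limit Rasgrf1, Zdbf2 and Plagl1, with 0 in 4, 5 and 4 libraries.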
